A study of Mus musculus with 2 samples.

Results

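The 10 genes described here encode enzymes of glycolysis and of lactate formation: Hk2, Pfkp, Aldoa, Tpi1, Gapdh, Pgk1, Pgam1, Eno1, Pkm2 and Ldha. They were taken by name from 22350 protein-coding genes on the 19 autosomes and X in the NCBIM37 (mm9) annotation, and all 10 were found. Chromatin immunoprecipitation with sequencing (ChIP-seq), which recovers the DNA lying near a protein in fixed chromatin, was done with 2 antibodies on 1 kind of cell. The first was M2 anti-FLAG, against a short peptide tag fused to cyclin D1, and the second was normal mouse IgG, the control for unspecific recovery. There was 1 library per antibody. Both came from untreated mouse embryonic fibroblasts (3T3 cells) that lack their own cyclin D1 (Ccnd1-/-) and carry FLAG-tagged cyclin D1 from a retroviral MSCV vector. The tagged protein is therefore made from a viral promoter, and cells without the tag were not analysed here. Across introns 1 to 3 of Ccnd1 (4860 bp) there was 1 anti-FLAG tag and 1 IgG tag, where the genome-wide means gave 17.0 and 17.1.

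Glycolysis splits glucose into pyruvate in the cytosol, with a first phase that spends ATP and a second that returns it, and lactate dehydrogenase turns pyruvate into lactate. Proliferating fibroblasts use the pathway heavily, and many of its genes are known targets of Myc, through E-boxes, and of the hypoxia-inducible factors. Cyclin D1 binds CDK4 and CDK6 to drive cells through G1 and has no DNA-binding domain of its own, so it reaches DNA only with other proteins. In human leukaemia cells the related cyclin D3, with CDK6, phosphorylates the PFKP and PKM2 enzymes themselves.

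Deposited data were the positions of aligned sequence tags of 36 bp (9259840 with anti-FLAG, 9312346 with IgG). Tags were counted within 1 kb and within 500 bp of the annotated 5′ end of each gene, here called its start. Counts were compared after scaling by the tags on the autosomes and X (9255188 anti-FLAG, 9308877 IgG), which multiplied the IgG counts by 0.994. The member promoters held 14 to 56 tags within 1 kb in both libraries together, so every ratio below has a wide interval. Intervals are exact 95% intervals and cover counting error only. With 1 library per antibody there is no replicate check, and a p-value speaks of these 2 libraries alone.

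The 250 bases just upstream of the start follow for Hk2, Pgam1 and Pkm2, which are 3 of the 5 members past the test described below, and for Ldha, the member with the lowest ratio. They are shown as examples of the windows counted. The letters are of the NCBIM37 genome, 5′ to 3′ in the direction of transcription. All 4 windows are intergenic in the annotation at the points checked, next to the start and midway along. Capitals mark matches, on either strand, to 8 short motifs: the E-box CACGTG, the hypoxia response core ACGTG, the GC box GGGCGG, the TATA box TATAAA, the CCAAT box CCAAT, the cAMP response core TGACGT, the AP-1 element TGANTCA and the E2F core TTTNGCG. Every E-box also counts as a match to the hypoxia response core on each strand.
Hk2 (chr6:82724449-82724698, minus strand): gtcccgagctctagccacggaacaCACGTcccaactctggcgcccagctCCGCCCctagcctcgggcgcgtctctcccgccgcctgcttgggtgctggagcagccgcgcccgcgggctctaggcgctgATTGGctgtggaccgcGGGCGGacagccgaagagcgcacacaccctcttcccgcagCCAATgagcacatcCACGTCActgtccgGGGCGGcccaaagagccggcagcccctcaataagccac
Pgam1 (chr19:41986111-41986360, plus strand): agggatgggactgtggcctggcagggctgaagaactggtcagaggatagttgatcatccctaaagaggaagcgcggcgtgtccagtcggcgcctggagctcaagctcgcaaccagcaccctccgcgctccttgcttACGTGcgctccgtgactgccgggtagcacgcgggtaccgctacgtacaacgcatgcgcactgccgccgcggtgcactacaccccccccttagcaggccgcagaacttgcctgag
Pkm2 (chr9:59504133-59504382, plus strand): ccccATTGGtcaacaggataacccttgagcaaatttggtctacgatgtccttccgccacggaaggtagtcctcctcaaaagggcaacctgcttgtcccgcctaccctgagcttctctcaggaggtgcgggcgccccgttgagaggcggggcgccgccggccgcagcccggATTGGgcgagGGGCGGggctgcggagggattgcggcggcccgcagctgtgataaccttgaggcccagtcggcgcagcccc
Ldha (chr7:54096595-54096844, plus strand): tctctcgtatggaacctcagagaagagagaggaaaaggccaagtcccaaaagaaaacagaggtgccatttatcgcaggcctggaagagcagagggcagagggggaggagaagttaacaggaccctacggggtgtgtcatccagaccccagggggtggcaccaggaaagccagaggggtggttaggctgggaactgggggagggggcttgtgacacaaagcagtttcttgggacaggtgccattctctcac
The annotated start of Ldha lies 4329 bp upstream of the first RefSeq start, so the same stretch before that RefSeq start is shown beside it, an addition made after its values were seen. At the same points along it, this stretch lies in an intron of the longer annotated transcript.
Ldha, RefSeq start (chr7:54100924-54101173, plus strand): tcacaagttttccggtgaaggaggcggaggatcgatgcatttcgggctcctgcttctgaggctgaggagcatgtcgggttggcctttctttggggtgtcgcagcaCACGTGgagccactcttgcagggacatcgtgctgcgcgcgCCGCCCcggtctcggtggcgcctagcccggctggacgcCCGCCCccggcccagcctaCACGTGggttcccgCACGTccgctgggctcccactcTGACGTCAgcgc

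Within 1 kb of the start the scaled anti-FLAG to IgG ratio ranged between 10.1 at Pkm2 and 1.01 at Ldha, which had 7 tags in each library. Of the 9 genes with enough tags to test (at least 20 in both libraries together), Hk2, Tpi1, Gapdh, Pgam1 and Pkm2 were higher in the anti-FLAG library by the exact conditional binomial test at an adjusted p under 0.05, and 0 were lower. The same test, with Benjamini-Hochberg adjustment over 10947 promoters, called 29.7% of all tested promoters higher and 0.0913% lower, so a call of this kind was common. At least 2-fold higher were 7 of the 9 tested members, against 48.2% of all tested promoters. The median log2 ratio, with 1 tag added to each count, was 1.30 over the 10 members and 0.88 over all tested promoters. Summed over the 10 windows there were 222 anti-FLAG and 74 IgG tags, a ratio of 3.02 (2.31 to 3.98), against a summed ratio of 1.89 over all tested promoters.

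Anti-FLAG tags favoured GC-rich DNA more than IgG tags did, also away from gene starts. In windows more than 10 kb from any start the anti-FLAG to IgG ratio was 0.96 at 40 to 42% GC, 1.34 at 50 to 52% GC and 2.18 at 60 to 62% GC. The member windows had a median GC content of 54.9% (52.0 to 57.8%), against 52.7% for all tested promoters. With the ratio in far windows of like GC as the expectation, the members' median log2 ratio was 0.90, against 0.48 over all tested promoters. Pkm2 was then the 1 member past the exact test, and of all tested promoters 1.87% were then higher and 0.0183% lower.

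Hexokinase II, the enzyme that traps glucose in the cell as glucose 6-phosphate, is encoded by Hk2 (chromosome 6, 82675019 to 82724448, minus strand). Its promoter held 26 anti-FLAG tags and 4 IgG tags within 1 kb, a ratio of 6.54 (2.27 to 25.8; log2 2.44, adjusted p = 0.00121, exact test). Within 500 bp there were 13 anti-FLAG tags and 1 IgG tag, too few to test. The anti-FLAG tags were spread on both sides of the start, 14 upstream and 12 downstream. The GC content of its window (55.9%) gave an expected ratio of 1.41, and against it the log2 ratio was 2.03 (adjusted p = 0.0557, exact test). Its printed sequence holds 2 hypoxia response cores, 3 GC boxes, 2 CCAAT boxes and 1 cAMP response core, which overlaps the nearer core.

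Pfkp encodes the platelet-type phosphofructokinase, which carries out the committed step of the pathway (chromosome 13, 6579014 to 6648023, minus strand). Within 1 kb it had 13 anti-FLAG and 9 IgG tags, with 10 anti-FLAG and 5 IgG tags within 500 bp. The ratio within 1 kb was 1.45 (0.575 to 3.85; adjusted p = 0.52, exact test). DNA of like GC gave 1.47, so its GC-corrected log2 ratio had the other sign (0.49 uncorrected, -0.02 corrected).

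Aldolase A, from Aldoa (chromosome 7, 133938748 to 133944265, minus strand), cleaves fructose 1,6-bisphosphate into a pair of triose phosphates, which triosephosphate isomerase, from Tpi1, interconverts. Within 1 kb of its annotated start Aldoa had 15 anti-FLAG and 6 IgG tags (ratio 2.51, 0.922 to 7.91; adjusted p = 0.116, exact test). Its anti-FLAG tags lay mainly further into the gene, where other transcripts start. Around the RefSeq start 1497 bp downstream the 1-kb window held 21 anti-FLAG and 3 IgG tags, and the 500-bp window 15 anti-FLAG and 0 IgG tags. The ratio there was 7.04 (2.1 to 36.9), with 1.86 expected from its GC content. The 250 bases upstream of that start hold 1 hypoxia response core, 2 GC boxes, 1 CCAAT box and 1 AP-1 element, while the 250 bases upstream of the annotated start, which overlap an exon of Gm15676, hold no match to any of the 8 motifs.

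Tpi1 (chromosome 6, 124760604 to 124764314, minus strand) had, within 1 kb, 22 anti-FLAG and 6 IgG tags, with 13 anti-FLAG and 4 IgG tags within 500 bp. The ratio within 1 kb was 3.69 (1.45 to 11.1; log2 1.72, adjusted p = 0.0143, exact test). Of the 22 anti-FLAG tags, 16 lay downstream of the start, 8 of them in the first 250 bp. Its GC-corrected log2 ratio was 1.05 (adjusted p = 0.406, exact test).

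**Figure D1:**
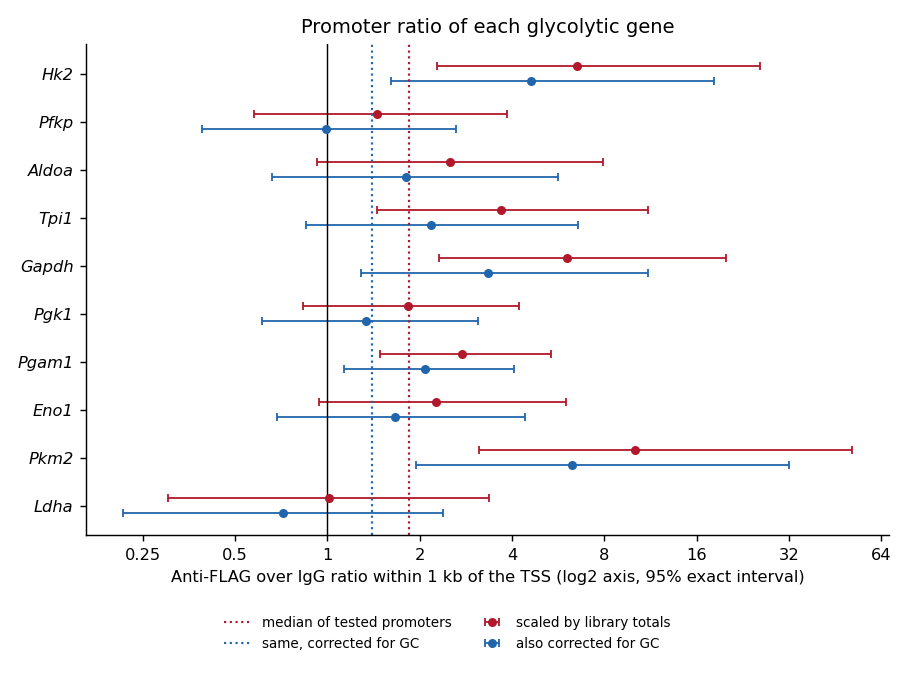
Ratio of anti-FLAG to IgG tags within 1 kb of the start of each glycolytic gene on a log2 axis, scaled by library totals (red) and also corrected for GC content (blue), with exact 95% intervals. Dotted lines mark the medians over all tested promoters. All 10 blue points lie left of the red points of the same gene, and the intervals of all 10 genes overlap one another.

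Glyceraldehyde 3-phosphate dehydrogenase, from Gapdh (chromosome 6, 125111871 to 125116485, minus strand), makes the NADH of the pathway and opens its energy-yielding phase. Within 1 kb Gapdh had 30 anti-FLAG and 5 IgG tags, a ratio of 6.03 (2.32 to 19.9; log2 2.38, adjusted p = 0.000639, exact test). Within 500 bp it had 17 anti-FLAG and 5 IgG tags (log2 1.59, adjusted p = 0.021, exact test). The excess lay on the gene side: 22 of the 30 anti-FLAG tags were downstream of the annotated start. Around the RefSeq start 694 bp downstream, there were 20 anti-FLAG tags and 1 IgG tag within 500 bp. Within 1 kb of that RefSeq start there were 36 anti-FLAG and 6 IgG tags. The ratio there was also 6.03 (2.52 to 17.5), with 1.97 expected from GC. The 1-kb window at the annotated start was the richest in GC of the 10 (57.8%). Against its expected ratio of 1.80 the log2 ratio was 1.64 (adjusted p = 0.123, exact test).

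Phosphoglycerate kinase 1, from the X-linked Pgk1 (103382439 to 103399038, plus strand), yields the first ATP of the pathway. Within 1 kb it had 20 anti-FLAG and 11 IgG tags, with 11 anti-FLAG and 6 IgG tags within 500 bp (1-kb ratio 1.83, 0.835 to 4.23; adjusted p = 0.197, exact test). The interval includes 1, and it also includes the median ratio of all tested promoters. The window upstream of Pgk1 holds 2 hypoxia response cores, 1 GC box and 1 CCAAT box.

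Pgam1 encodes phosphoglycerate mutase 1, which moves the phosphate from the 3 to the 2 position of glycerate (chromosome 19, 41986361 to 41993154, plus strand). It had the most tags of the 10 genes, 41 anti-FLAG and 15 IgG within 1 kb and 24 anti-FLAG and 7 IgG within 500 bp. The ratio was 2.75 within 1 kb (1.49 to 5.35; log2 1.40, adjusted p = 0.00547, exact test), and the log2 ratio was 1.65 within 500 bp (adjusted p = 0.00655, exact test). Most tags of both libraries were upstream: 31 of the 41 anti-FLAG and 10 of the 15 IgG tags preceded the start. In the last 250 bp before it there were 11 anti-FLAG tags and 1 IgG tag. Its GC-corrected log2 ratio within 1 kb was 1.02 (adjusted p = 0.165, exact test). Its printed sequence holds 1 hypoxia response core, 114 to 110 bases before the start, and no other match.

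Enolase 1, from Eno1 (chromosome 4, 149610830 to 149622988, plus strand), forms phosphoenolpyruvate. Within 1 kb it had 18 anti-FLAG and 8 IgG tags, with 9 anti-FLAG and 3 IgG tags within 500 bp. The ratio within 1 kb was 2.26 (0.936 to 6.02, adjusted p = 0.116, exact test), and its GC-corrected log2 ratio was 0.68. At the RefSeq start 476 bp downstream the ratio was 1.46 (0.638 to 3.49). At that 503 bp downstream it was 1.65 (0.736 to 3.86), and 1.59 was expected from GC at each.

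Pyruvate kinase M, which makes pyruvate and the last ATP, comes in the splice forms M1 and M2, and the annotation names its gene Pkm2 (chromosome 9, 59504383 to 59527182, plus strand). Its 1-kb window held 30 anti-FLAG and 3 IgG tags, a ratio of 10.1 (3.13 to 51.5; log2 2.96, adjusted p = 0.000105, exact test). Within 500 bp it had 12 anti-FLAG and 0 IgG tags, at least 4.02-fold higher with IgG set at 3 counts in the window, and the exact interval of the ratio begins at 2.79. Its log2 ratio against the GC expectation of 1.60 was 2.42 (adjusted p = 0.0244, exact test). The ratio rested on a stretch with few IgG tags: no 250-bp bin between positions -750 and 999 held any, while the bins starting at -1500 and -1250 held 4 each. In the wider window of 2.5 kb on each side there were 57 anti-FLAG and 33 IgG tags, a ratio of 1.74 (1.11 to 2.75; adjusted p = 0.0784, exact test). Around the RefSeq start 651 bp downstream the 1-kb window held 21 anti-FLAG and 8 IgG tags. The ratio there was 2.64 (1.12 to 6.89), an interval that includes the 1.55 expected from GC. Within 500 bp of that start there were 11 anti-FLAG tags and 1 IgG tag. The printed sequence of Pkm2 holds 2 CCAAT boxes and 1 GC box.

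Lactate dehydrogenase A, from Ldha (chromosome 7, 54096845 to 54110997, plus strand), regenerates the NAD needed upstream by making lactate. Around its annotated start Ldha had, within 1 kb, 7 anti-FLAG and 7 IgG tags, under the minimum for the test, and 2 anti-FLAG and 4 IgG tags within 500 bp. The ratio within 1 kb was 1.01 (0.301 to 3.36; log2 0.01 uncorrected and -0.43 corrected for GC). At the RefSeq start 4329 bp downstream the 1-kb window held 16 anti-FLAG and 10 IgG tags (ratio 1.61, 0.687 to 3.97), with 1.68 expected from GC. Within 500 bp of that start there were 10 anti-FLAG tags and 1 IgG tag. The sequences at these starts were unlike: the stretch before the annotated start holds no motif match, and the stretch before the RefSeq start holds 2 E-boxes, 5 hypoxia response cores, 2 GC boxes and 2 overlapping cAMP response cores. CpG dinucleotides were at 0.163 of the number expected from base composition before the annotated start and at 0.886 of it before the RefSeq start.

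By ratio within 1 kb the genes stood in the order Pkm2, Hk2, Gapdh, Tpi1, Pgam1, Aldoa, Eno1, Pgk1, Pfkp and Ldha. The intervals of all 9 neighbouring pairs in that order overlapped, as did those of all 45 pairs. The intervals of Pkm2 and Ldha overlapped only between 3.13 and 3.36. Differences between members were not tested. The intervals of 5 members lay above 1. None of the 10 starts had the start of another gene within 2 kb.

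Within 500 bp only Gapdh and Pgam1 had enough tags to test, and both were higher in the anti-FLAG library and at least 2-fold. Of the 3013 promoters tested at this width 62.4% were higher, 0.0996% were lower and 77.4% were at least 2-fold higher. With GC correction 0 of these members were called, against 10.9% of those promoters higher and 0.0332% lower. Over the 10 members there were 120 anti-FLAG and 37 IgG tags within 500 bp, a ratio of 3.26 (2.24 to 4.85), against 2.81 over the tested promoters. The median log2 ratio was 1.54 over the 10 members, 8 of them under the tag minimum, against 0.81 over all 22350 genes and 1.45 over the promoters that reached the minimum. With GC correction these medians were 0.86 over the members, 0.30 over all genes and 0.93 over the promoters that reached the minimum.

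**Figure D2:**
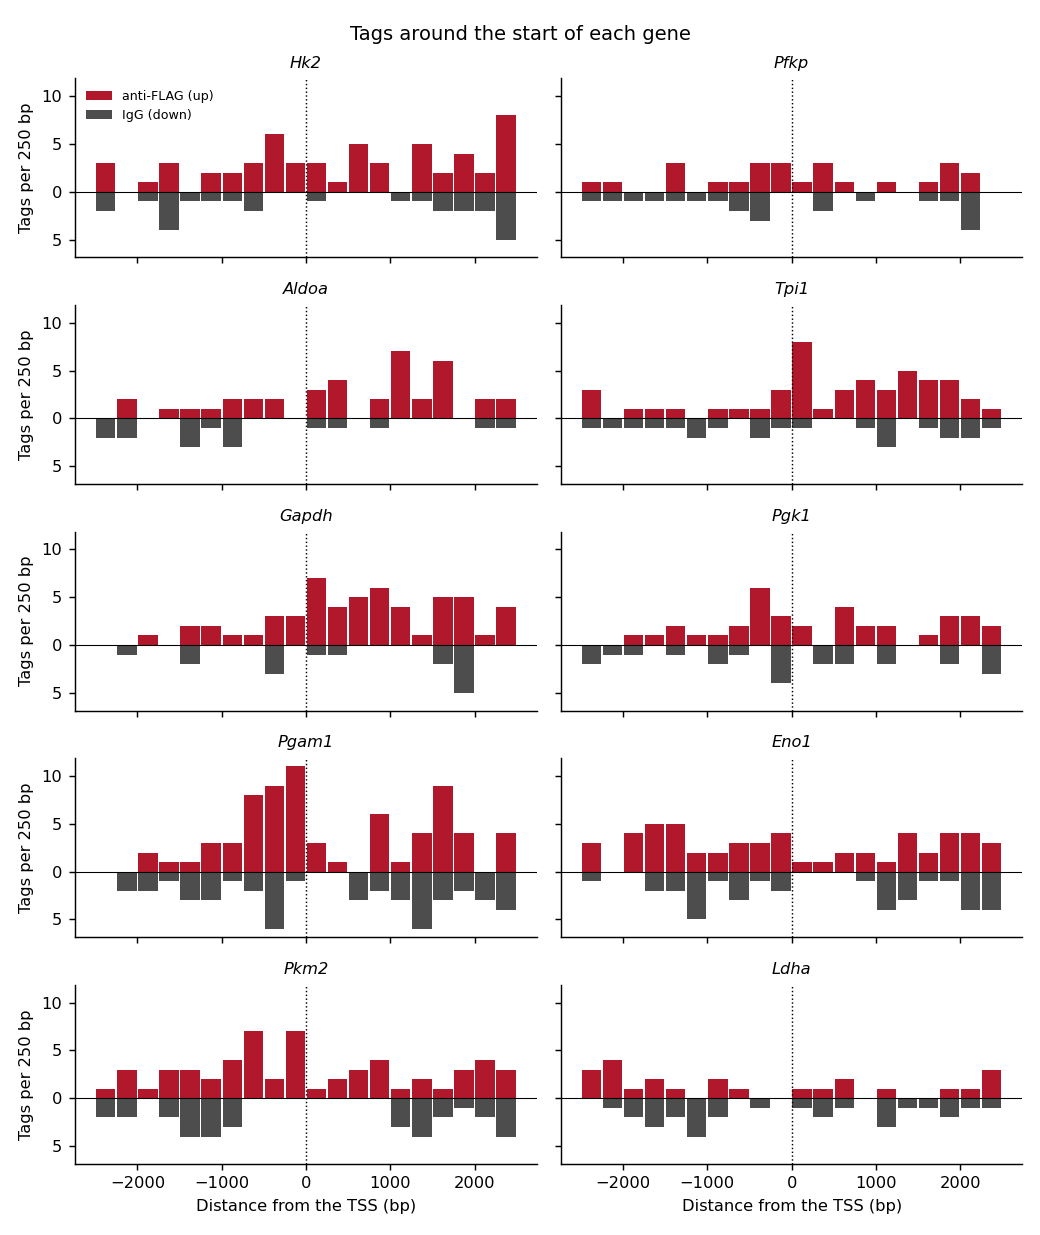
Tags per 250-bp bin around the start of each glycolytic gene, anti-FLAG above the line and IgG below it, with distance from the start in bp on the horizontal axis. Anti-FLAG tags lie mainly upstream of the start in Pgam1, downstream in Gapdh and Tpi1, and on both sides in Hk2. Within 1 kb the IgG tags of Pgam1 also lie mainly upstream (10 upstream, 5 downstream).

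Along the genes, anti-FLAG tags were densest in the 250 bp before the start, at 3.7 anti-FLAG and 0.8 IgG tags per member, against 2.33 and 0.785 per gene over all protein-coding genes. In the first 250 bp after the start members had 3.0 anti-FLAG and 0.5 IgG tags, against 1.67 and 0.563 over all genes. The IgG count was thus low at the start in the members and in all genes alike. Between 750 and 999 bp downstream the members still had 2.9 anti-FLAG and 0.6 IgG tags, against 1.52 and 1.15 over all genes. In the bin starting at 1000 bp the members had 2.1 anti-FLAG and 1.9 IgG tags, and in the bin starting at 1500 bp 3.1 anti-FLAG and 1.3 IgG tags, against 1.30 and 1.15 over all genes. The bin starting at 2250 bp had 3.0 anti-FLAG and 2.3 IgG tags per member. These are sums over 10 genes, with 5 to 37 tags per bin and library for the bins from -250 to 999, and no test was made on single bins.

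**Figure D3:**
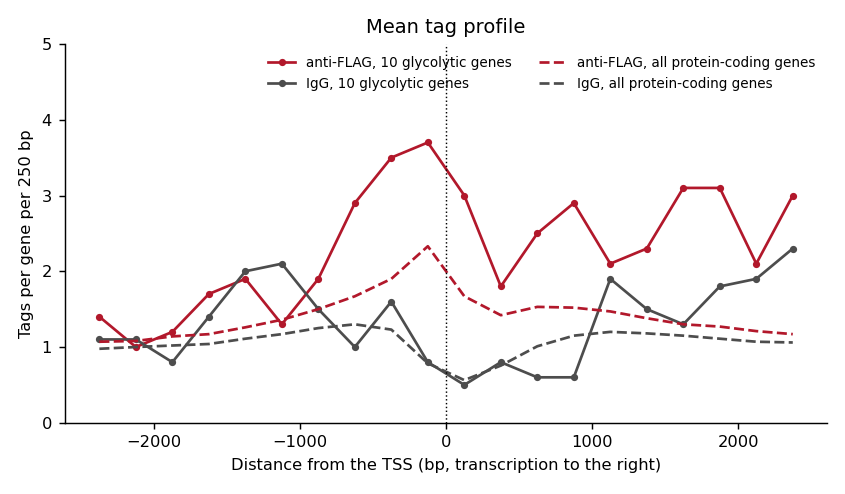
Mean number of tags per gene in 250-bp bins from 2500 bp upstream to 2500 bp downstream of the start, for the 10 glycolytic genes and for all protein-coding genes, for anti-FLAG and for IgG. The members reach 3.7 anti-FLAG tags per gene just upstream of the start, where all genes reach 2.33, and both sets have 0.8 IgG tags or fewer there.

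Regions of anti-FLAG excess were called across the genome by merging 500-bp windows that held 10 or more anti-FLAG tags, stood 2-fold or more above the local IgG background and had a one-sided exact Poisson p under 1e-05. They overlapped the 1-kb window of 2 of the 10 members, Gapdh and Pgam1, and of 14.8% of all tested promoters. At Gapdh the region nearest the start, centred at position -15, held 11 anti-FLAG and 2 IgG tags. A further region (125115501 to 125116000) was centred in a Gapdh exon 735 bp downstream, near the RefSeq start, and held 12 anti-FLAG and 0 IgG tags. The region at Pgam1 (41986001 to 41986500) was centred 111 bp upstream and held 19 anti-FLAG and 3 IgG tags. From GC alone the expected ratio was 1.94 at the region nearest the Gapdh start and 2.18 at each of the other two.

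Away from the promoters, a region on chromosome 13 (6625501 to 6626250) was centred in an intron of Pfkp, 22148 bp from the start. It held 21 anti-FLAG and 5 IgG tags. It was 5.03-fold over background (one-sided exact Poisson p = 9.29e-09), with 0.933 expected from GC, while the Pfkp promoter ratio was near its GC expectation. Regions 8015 bp from the start of Aldoa and 8814 bp from that of Tpi1 were centred in intergenic DNA. The first held 15 anti-FLAG and 3 IgG tags and lay 265 bp from the start of Ppp4c, a phosphatase subunit gene. The second held 14 anti-FLAG tags and 1 IgG tag, and its nearest start was that of Spsb2, 3179 bp away. From GC alone the expected ratio was 1.45 at the first and 1.56 at the second.

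Beyond 1 kb from the start, the gene bodies of the 10 members together held 5.51 anti-FLAG and 4.51 IgG tags per kb, a ratio of 1.23 (1.12 to 1.35), where the genome means were 3.51 and 3.53 tags per kb. The body ratio expected from GC ranged from 1.03 at Pgk1 to 1.56 at Aldoa, and no pooled expectation was computed. The promoters held 11.1 anti-FLAG and 3.70 IgG tags per kb. Aldoa stood highest by body ratio, with 42 anti-FLAG and 9 IgG tags (4.69, 2.25 to 11; 1.56 expected from GC), and its body includes the RefSeq start 1497 bp downstream. Gapdh followed with 40 anti-FLAG and 14 IgG tags (2.87, 1.53 to 5.72, with 1.47 expected). Within 500 bp of its 3′ end it had 13 anti-FLAG and 2 IgG tags (6.54, 1.48 to 59.7, with 1.39 expected), the highest ratio of the 10 gene ends. Together the 10 gene ends held 56 anti-FLAG and 38 IgG tags, a ratio of 1.48 (0.965 to 2.3).

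Hk2 and Eno1 also had body intervals above 1. Hk2 had 289 anti-FLAG and 200 IgG tags (1.45, 1.21 to 1.75; 1.23 expected), and Eno1 had 76 anti-FLAG and 43 IgG tags (1.78, 1.21 to 2.65; 1.26 expected). In both, the GC expectation lay inside the interval. Pfkp had fewer anti-FLAG than IgG tags, 249 and 281 (0.891, 0.748 to 1.06), with 1.11 expected. Pkm2, the member with the highest promoter ratio, had 138 anti-FLAG and 128 IgG tags in its body (1.08, 0.846 to 1.39). Pgk1 (1.05) and Pgam1 (0.989) were also near 1 in their bodies, while Tpi1 (1.76, 0.92 to 3.48) and Ldha (1.37, 0.981 to 1.93) had intervals that include 1.

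How much of each gene could be seen at all differed between exons and promoters. Glycolytic genes are known for their many processed pseudogenes, which copy exons without introns or promoters. Of the 36-base positions in the member promoters, 97.2% occurred once in the genome, against 75.3% in the exons beyond 1 kb and 93.1% in the introns. The exons of Pgam1 were almost wholly repeated elsewhere, with 12 of 1410 positions unique (0.851%), and they held 1 anti-FLAG tag and 1 IgG tag. Unique shares were also low in the exons of Pgk1 (26.7%), Gapdh (40.9%) and Pkm2 (42.5%), and high in those of Hk2 (99.6%) and Pfkp (99.9%). Among the members' tags wholly inside these segments, 0 anti-FLAG tags and 1 IgG tag, in an intron of Pgk1, lay at a repeated position. Exon counts of Pgam1, Pgk1, Gapdh and Pkm2 are therefore limited by sequence. The promoter counts within 1 kb are less affected, with the lowest share, 88.3%, at Pgam1. Within 500 bp 764 of 966 positions were unique at Pgam1 (79.1%), and 89.3% were unique at Pgk1.

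**Figure D4:**
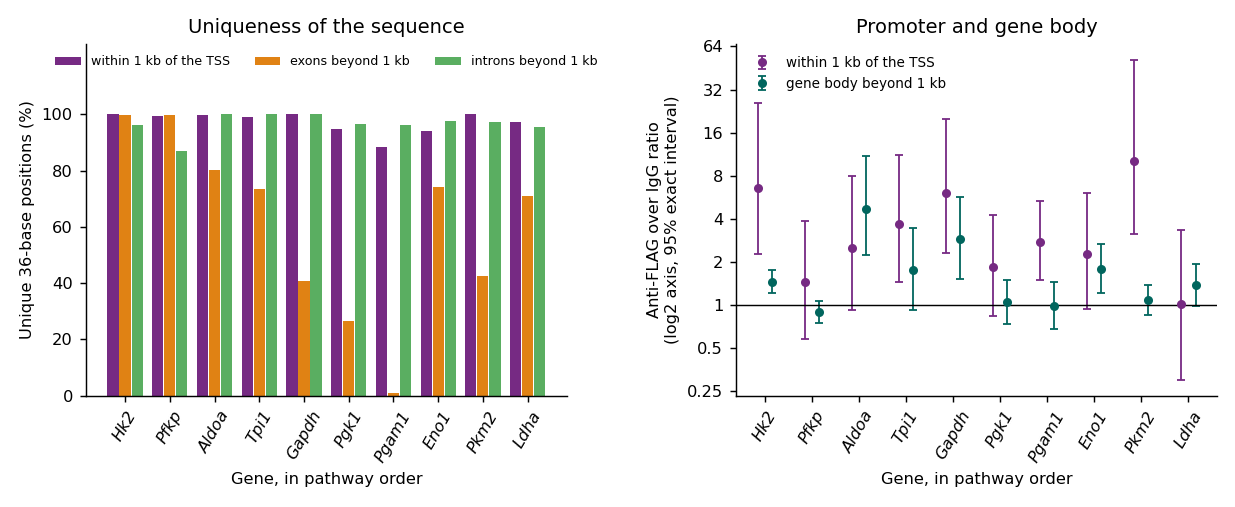
Left, percent of 36-base positions that occur once in the genome, for the 1-kb promoter window, exons and introns of each glycolytic gene. Right, anti-FLAG over IgG ratio in the promoter window and in the gene body beyond 1 kb, on a log2 axis with exact 95% intervals; the body ratio is above the promoter ratio in Aldoa and Ldha and below it in the other genes.

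Motif matches differed among the members, and Aldoa, Tpi1 and Ldha had none of the 8. In the 250 bases upstream of the annotated start, 4 of 10, among them Hk2, Pgk1 and Pgam1, had a hypoxia response core, against 17.5% of all 22350 genes. A CCAAT box was found in 6 of 10 and in 35% of all genes, and a GC box in 5 of 10 and in 39.6% of all genes. The cAMP response core was found in Hk2 alone, and in 7.19% of all genes. E-boxes (6.52% of all genes), TATA boxes (12.3%), AP-1 elements (6%) and E2F cores (4.05%) had 0 matches in the 10 windows, though the downstream Ldha and Aldoa starts above hold E-boxes and an AP-1 element. Median GC of these windows was 61.2%, against 54.0% over all genes. Matches are short letters that recur by base composition and are not evidence of binding by any factor.

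A further 17 annotated genes were listed beside the members: other isoenzymes of the same steps, the isomerase Gpi1, and Bpgm of the bisphosphoglycerate side branch. Of these, 7 had enough tags to test and 3 were higher in the anti-FLAG library within 1 kb, against the 29.7% of all tested promoters, and with GC correction 0 were. Their median log2 ratio was 0.55. Ldhb, the heart form of lactate dehydrogenase, had 38 anti-FLAG and 14 IgG tags (adjusted p = 0.00772, exact test). Muscle enolase, Eno3, had 22 anti-FLAG and 7 IgG tags (adjusted p = 0.0242, exact test), and another gene starts within 2 kb of it. Bpgm, which makes 2,3-bisphosphoglycerate, had 30 anti-FLAG and 13 IgG tags (adjusted p = 0.0355, exact test).

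Among the other hexokinases, Hk1 had 7 anti-FLAG and 9 IgG tags and Hk3 had 1 of each. Gpi1, the isomerase between hexokinase and phosphofructokinase, had 6 anti-FLAG and 8 IgG tags. Phosphofructokinases Pfkl (28 anti-FLAG, 14 IgG; adjusted p = 0.0816, exact test) and Pfkm (15 anti-FLAG, 10 IgG) had ratios of 2.01 and 1.51. Neither passed the test within 1 kb, and so Pfkl, Pfkm and Pfkp had the same call there.

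Other isoenzymes had few tags. Aldolase C, from Aldoc, had 11 anti-FLAG and 7 IgG tags. The sperm forms Gapdhs, Pgk2 and Ldhc had 6, 7 and 8 anti-FLAG tags, against 4, 8 and 4 IgG tags. Muscle mutase Pgam2 had 13 anti-FLAG and 8 IgG tags, neuronal enolase Eno2 had 12 anti-FLAG and 8 IgG tags, and the liver pyruvate kinase gene Pklr had 1 anti-FLAG and 3 IgG tags.

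In the neighbouring pathways the counts below are to be read against the 29.7% of all tested promoters called higher. Of the transporters of glucose and lactate, 3 of 6 could be tested and 0 were higher. The glucose carriers were Slc2a1 (22 anti-FLAG, 9 IgG; adjusted p = 0.0594, exact test), Slc2a4 (13 anti-FLAG, 11 IgG) and Slc2a3 (15 anti-FLAG, 14 IgG). Of 14 regulators of glycolysis, 10 could be tested and 4 were higher, not far above the 29.7%. The smallest p were those of Vhl (30 anti-FLAG, 9 IgG; adjusted p = 0.00685, exact test) and Egln3 (23 anti-FLAG, 6 IgG; adjusted p = 0.0108, exact test), both of which mark hypoxia-inducible factors for destruction, and of Myc (31 anti-FLAG, 11 IgG; adjusted p = 0.0126, exact test).

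Pyruvate's routes into the mitochondrion gave 4 higher of 9 tested, also against 29.7% of all tested promoters. Pcx, pyruvate carboxylase, had 43 anti-FLAG and 9 IgG tags (adjusted p = 0.000141, exact test), Dlat had 17 anti-FLAG and 4 IgG tags, and Pdha1 and Brp44l had 18 anti-FLAG and 6 IgG tags each. The pentose phosphate pathway, which branches off after hexokinase, gave 2 higher of 7 tested, near the 29.7%: G6pdx, its first enzyme (20 anti-FLAG, 4 IgG; adjusted p = 0.00792, exact test), and Rpia (34 anti-FLAG, 13 IgG; adjusted p = 0.0135, exact test), followed by Rpe (22 anti-FLAG, 10 IgG; adjusted p = 0.0874, exact test). Gluconeogenesis, which runs the pathway backwards, gave 1 higher of 2 tested, G6pc3 (29 anti-FLAG, 9 IgG; adjusted p = 0.00888, exact test), with Pck2 at 21 anti-FLAG and 8 IgG tags (adjusted p = 0.052, exact test).

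The tricarboxylic acid cycle gave 4 higher of 15 tested, a share close to the 29.7% of all tested promoters. Its smallest p were those of Sucla2, a subunit of succinyl-CoA ligase (37 anti-FLAG, 10 IgG; adjusted p = 0.00169, exact test), and of the succinate dehydrogenase subunits Sdhc (35 anti-FLAG, 11 IgG; adjusted p = 0.00437, exact test) and Sdhd (35 anti-FLAG, 13 IgG; adjusted p = 0.0108, exact test). Sdhc and Sdhd have another start within 2 kb. With GC correction Sucla2 was the 1 gene past the exact test within 1 kb in all of these lists outside the 10 members (adjusted p = 0.0112). Median log2 ratios were 0.47 for the transporters, 1.01 for the regulators, 0.89 for the mitochondrial entry genes, 1.07 for the pentose phosphate genes, 0.63 for gluconeogenesis and 0.83 for the tricarboxylic acid cycle, against 1.30 for the 10 members and 0.59 over all 22350 genes. Within 500 bp the order differed. There the medians were 1.88 for the tricarboxylic acid cycle, 1.59 for the pentose phosphate genes and 1.54 for the members. The other lists, isoenzymes included, had 0.59 to 1.44. With GC correction the 500-bp medians were 1.07 for the tricarboxylic acid cycle, 0.95 for mitochondrial entry and 0.86 for the members. The remaining lists were then at 0.24 to 0.85. These medians include genes below the test minimum, and the difference between lists was not tested.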

How the data were processed

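ChIP-seq libraries made with anti-FLAG M2 and normal mouse IgG were compared, 1 library each, from the same kind of cells. The deposited files list aligned tags, 1 line per tag, with a score that the authors set to 512 on every line, so the score was not used as a measurement. Whole-number tag counts per window were made here from the deposited positions. The aligner, genome build and filters were not given in the sources used here; tag positions were compared with NCBIM37 chromosome lengths, and 4 anti-FLAG and 2 IgG tags reached past a chromosome end. No tags in a library shared position and strand (0 of all tags), which caps the count at strong sites.

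Tags were shifted by 76 bp toward the fragment centre; the lag between strands was 152 bp for anti-FLAG and 135 bp for IgG. Anti-FLAG and IgG tags were compared by a two-sided exact conditional binomial test at an adjusted p of 0.05, over all protein-coding promoters with at least 20 tags, and the code was tested on simulated data. The GC expectation came from 500-bp windows over 10 kb from any start, in strata of 2 percentage points. The alternatives were another scaling, no shift, 2.5 kb windows, minima of 10 tags and none, 0.5 added tags, GC correction and other starts. Sequences were read from the NCBIM37 genome, and RefSeq starts were placed by exact match of 16 RefSeq (GRCm38.p6) promoter sequences in it. Profiles use 250-bp bins in place of the narrower bins first planned.

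The members and gene lists were chosen with earlier results of these data known. Genes named are all 10 members, all listed isoenzymes, and from each other list the 3 of smallest p within 1 kb, with a tie of Pdha1 and Brp44l; sequences are shown for the members past the test within 1 kb and the member of lowest ratio, up to 5 in all. A few genes and sequences under this rule are not reported here. Tools were Python 3.11.15, NumPy 2.4.6, SciPy 1.17.1, pandas 2.3.3 and Matplotlib 3.10.9.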

Additional observations from a re-analysis of the deposited data

How the results depend on the processing

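With GC correction the count of members higher within 1 kb was 1 in place of 5, within 500 bp 0 in place of 2, and over all promoters 205 in place of 3246. The members' median log2 ratio within 1 kb was 0.90 with GC correction and 0.71 within 2.5 kb, in place of 1.30. Within 2.5 kb 4 of 10 members were higher in place of the 2 within 500 bp, and 2131 of the 20310 promoters tested at that width. With a minimum of 10 tags 4 of the 9 members then tested were higher within 500 bp. The share over all promoters was not computed for that minimum within 500 bp, so this count cannot be read as high or low. With at least 20 tags that share was 62.4%. Under the other alternatives the 1-kb count was 5 or 6. Scaling by background bins gave 5, with 4132 of 10947 tested promoters higher, and no shift gave 6, with 3215 of 10932. A minimum of 10 tags gave 5, with 3021 of 18210 promoters, and no minimum gave 5, with 2657 of 21703. Adding 0.5 tags gave 5, with 3246 of 10947, and the most-tagged starts gave 6, with 3376 of 11804.

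Calls of single genes also moved. Aldoa passed the exact test without the tag shift (log2 1.59, adjusted p = 0.0393) and within 2.5 kb (1.24, 0.026). It also passed the exact test at its most-tagged start (2.65, 0.00102) and at its first RefSeq start (2.40, 0.00402). The most-tagged start was chosen by the summed tags of both libraries in these data, so that p is not independent of the choice. At that start 1.89 was expected from GC. Pgam1 did not pass within 2.5 kb (0.57, 0.149). Hk2, called under every alternative but GC correction, had a log2 ratio of 1.17 at its most-tagged start. RefSeq starts, an alternative chosen after seeing the data, gave 6 of 10 members higher and a median of 1.47. Other genes stayed at their annotated starts, and 3247 of 10948 tested promoters were then higher. Scaling by background bins moved the median of all tested promoters to 1.00. The cause of these shifts was not tested.

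No paired analysis was possible because each antibody had 1 library, and leaving out a library was not run. Promoter counts of 14 to 56 tags limit the precision.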
